A study of Mus musculus with 3 samples.

Results

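The 10 genes described here are targets of the hypoxia-inducible factors (HIF) that lie outside glycolysis: Slc2a1, Slc2a3, Bnip3, Ndrg1, Ankrd37, Egln3, P4ha1, Ero1l, Vegfa and Car9. They were chosen by symbol, and all 10 were listed on all 3 plates, among 28875 nuclear-encoded features in all. RNA of mouse embryonic kidney cells was measured with SORT-seq, which sorts cells into 384-well plates and tags each RNA copy so that it is counted once. The uncultured plate held E11.5 kidney cells of C57BL/6 mice with the LGR6-EGFP-IRES-CreERT2 allele. Both cultured plates held cells of kidney explants grown in medium with 10% fetal calf serum, from C57BL/6 mice that also carried ROSA26-tdTomato, a red reporter that Cre switches on. The E12.5 explants were cultured for 5 days, and the E11.5 explants for 7 days by the sample's title but 5 days by its stage label. All mice thus carried the inducible Cre at Lgr6, which encodes a receptor for R-spondins, and the labels give no inducer. Kidney identity was checked by 10 markers of nephron progenitors and 15 of stroma, all of which had counts on each plate. The nephron progenitor markers summed to 1459 CPM (counts per 1000000 counts of nuclear-encoded genes) uncultured but 483.0 and 338.2 on the cultured E12.5 and E11.5 plates.

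Each group was 1 plate, so no difference below has a replicate and no test was possible; intervals are exact 95% intervals for counting error only. Culture, the reporter allele and the sequencing run divided the plates in the same way and cannot be told apart. Wells kept as single cells had 1000 counts or more, with no more than 30% of them mitochondrial: 337 uncultured, 200 of the cultured E12.5 plate and 300 of the cultured E11.5 plate, with medians of 6732, 9212 and 8993 counts. They were 91.3%, 61.2% and 91.7% of the wells that were neither controls nor labelled as holding more than 1 cell. Wells deeper than 3 times the plate's median numbered 32, 7 and 9 and held from 45.6% of the counts uncultured to 10.6% on the cultured E11.5 plate. Levels in CPM are not divided by transcript length, so they compare plates and not genes. A plate's level sums over its wells, in which fewer cells of a type and less RNA per cell cannot be told apart. The 15 control wells of each plate held 4, 2 and 3 counts of the 10 genes together, of 13768, 2940 and 2738 counts in all. On the scale below that is 290.5 CPM (79.2 to 743.8), 680.3 (82.4 to 2457) and 1096 (226.0 to 3202), so the few counts of control wells did not differ detectably in make-up from those of the sample wells.

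HIF is a pair of proteins, an alpha subunit that oxygen makes unstable and the constant partner ARNT. In oxygen the prolyl hydroxylases of the Egln family mark the alpha subunit for destruction by the VHL ligase; when oxygen is low it persists and binds short DNA motifs near its target genes. The embryonic kidney grows at low oxygen before its vessels are complete, and Vegfa made by its cells draws in endothelium. The targets outside glycolysis serve glucose uptake, removal of mitochondria, oxygen sensing, folding of secreted matrix proteins, vessel growth and control of pH.

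The sequences just upstream of listed starts of the genes were read for the core of the HIF binding motif. Sequence further away was not read, so a stretch without a match does not show that a gene lacks one. RefSeq promoters of build GRCm38.p6 were matched for 8 of the 10 members, Ero1l under the name Ero1a; Slc2a3 and Ndrg1 had no entry in the table. 4 of them are printed as examples, 250 bases before the start of the gene, 5′ to 3′ on the gene's strand, with each ACGTG or GCGTG on either strand in capitals. Slc2a1 lies at chr4:119108495-119108744 on the plus strand, Bnip3 at chr7:138909507-138909756 on the minus strand, Ero1l at chr14:45318573-45318822 on the minus strand and Car9 at chr4:43506776-43507025 on the plus strand.
Slc2a1: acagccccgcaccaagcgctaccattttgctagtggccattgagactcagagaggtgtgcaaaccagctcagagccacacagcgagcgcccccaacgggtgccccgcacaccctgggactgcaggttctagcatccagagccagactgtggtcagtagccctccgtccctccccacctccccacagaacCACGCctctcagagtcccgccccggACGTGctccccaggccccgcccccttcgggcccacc
Bnip3: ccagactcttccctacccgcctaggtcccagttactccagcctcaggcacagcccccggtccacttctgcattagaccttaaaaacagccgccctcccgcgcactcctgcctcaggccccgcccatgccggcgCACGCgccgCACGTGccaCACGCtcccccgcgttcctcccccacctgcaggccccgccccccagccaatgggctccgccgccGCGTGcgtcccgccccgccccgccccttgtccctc
Ero1l: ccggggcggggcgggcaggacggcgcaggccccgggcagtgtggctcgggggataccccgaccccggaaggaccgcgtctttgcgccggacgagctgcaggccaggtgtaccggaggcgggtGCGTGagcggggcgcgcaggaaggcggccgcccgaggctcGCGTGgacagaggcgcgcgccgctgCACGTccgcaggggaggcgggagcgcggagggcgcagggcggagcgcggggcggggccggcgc
Car9: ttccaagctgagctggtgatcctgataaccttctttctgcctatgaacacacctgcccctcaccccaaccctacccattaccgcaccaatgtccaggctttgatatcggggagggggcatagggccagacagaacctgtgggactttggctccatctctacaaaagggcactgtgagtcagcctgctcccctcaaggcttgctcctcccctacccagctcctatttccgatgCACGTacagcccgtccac

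ACGTG was found on either strand in the first listed promoter of 7 of the 8 members, against 16.6% of all 32851 promoters in windows of the same length. Among promoters with at least 60% G and C the share was 23.0%, and all 5 members in that class held it. GCGTG was found in 5 of 8 members, against 28.2% of all promoters. These 5 were the members with at least 60% G and C, and the share of GCGTG among promoters of that class was not counted. In Bnip3 the 2 matches to ACGTG begin 108 and 107 bases before the start and are the same palindrome read on both strands. The match lay 36 bases before the start in Slc2a1, 63 in Ero1l and 18 in Car9, whereas in Egln3 it lay 229 bases before. The first Vegfa entry held neither motif, and a second entry, whose start lies inside the gene, held 1 of each. Of the first entries, the Ankrd37 window also lies inside its gene, and the P4ha1 window runs past the start of its gene. A match is a string of letters and was not tested for binding.

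All 10 genes were at least 2-fold higher on both cultured plates than on the uncultured plate, and the cultured E11.5 plate was the highest of the 3 for every one of them. Together they made up 309.7 CPM (293.0 to 327.0) on the uncultured plate, 1147 CPM (1104 to 1191) on the cultured E12.5 plate and 1797 CPM (1750 to 1843) on the cultured E11.5 plate. The summed level was thus 5.80-fold (5.46 to 6.17) higher on the cultured E11.5 plate and 3.70-fold (3.47 to 3.96) higher on the cultured E12.5 plate than on the uncultured plate. Of all genes tested in the first pair 20.9% were at least 2-fold higher and 11.4% at least 2-fold lower, and in the second 18.9% and 13.1%. Both comparisons use the same uncultured plate. The order of the 3 plates was the same for all 10 genes, but for Car9 and Ankrd37 the intervals of the 2 cultured plates overlap. As a mean over wells, Car9 was at 5.56 CPM on the cultured E12.5 and 5.16 CPM on the cultured E11.5 plate, the other order.

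**Figure D1:**
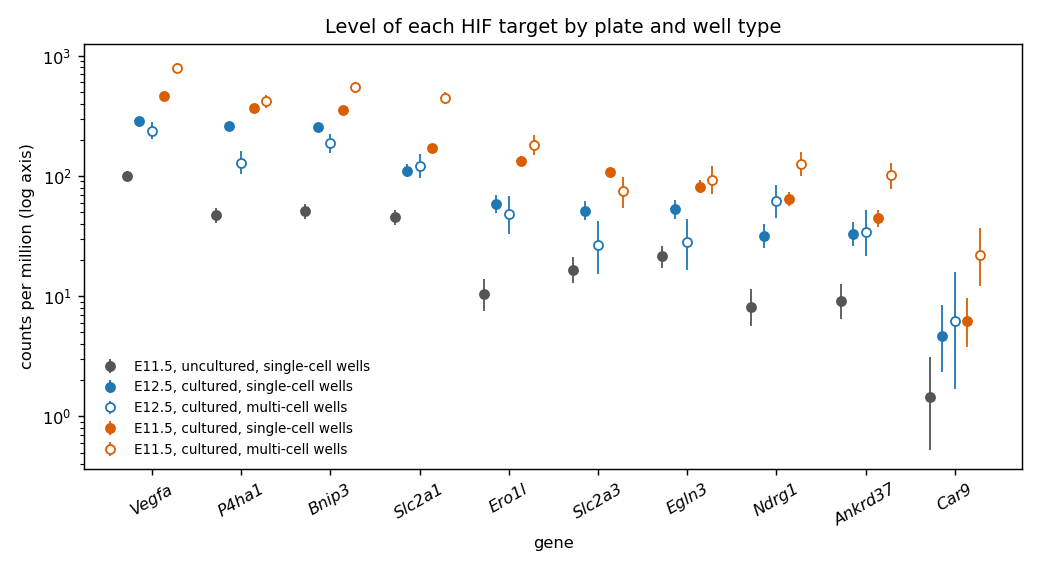
Level of each of the 10 genes in CPM on a log axis, by plate and well type, with exact 95% Poisson intervals as bars. Filled points are single-cell wells and open points wells with more than 1 cell; for every gene the grey uncultured point is the lowest, and the open orange points (cultured E11.5) lie above the filled ones for 9 of 10 genes.

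Slc2a1 and Slc2a3 encode the glucose transporters GLUT1 and GLUT3 of the cell membrane. Slc2a1 was at 45.4 CPM uncultured, 110.7 on the cultured E12.5 plate and 169.5 on the cultured E11.5 plate. Its cultured to uncultured ratios, 2.44 (2.01 to 2.95) and 3.73 (3.15 to 4.42), were the smallest of the 10 in each pair. Slc2a3 went from 16.6 CPM to 51.5 and 107.1, ratios of 3.11 (2.29 to 4.24) and 6.46 (4.97 to 8.49). The other sugar transporters of the family had smaller differences. Of the 5 relatives with at least 10 counts, Slc2a4, Slc2a8, Slc2a10, Slc2a12 and Slc2a13, none was 2-fold higher on the cultured E11.5 plate, with ratios from 0.87 for Slc2a12 to 1.94 for Slc2a10. Slc2a4, the insulin-regulated transporter, was 2.03-fold higher (1.35 to 3.07) on the cultured E12.5 plate.

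Bnip3 encodes a protein of the outer mitochondrial membrane that marks mitochondria for removal by mitophagy. It was at 50.7 CPM uncultured, 254.6 on the cultured E12.5 plate and 354.6 on the cultured E11.5 plate, ratios of 5.02 (4.28 to 5.90) and 6.99 (6.03 to 8.14). The share of wells with a Bnip3 count was 31.2% uncultured, 68.5% and 70.3%; after each well had been thinned to 3000 counts the shares were 15.9%, 44.0% and 50.3%. Its closest relative Bnip3l, which also acts in mitophagy, was 1.60-fold and 1.65-fold higher. Bnip1 and Bnip2, which share only part of the sequence, were 1.42-fold and 1.04-fold higher on the cultured E12.5 plate, with 1.83 and 0.93 on the cultured E11.5 plate.

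Ndrg1, a stress-induced cytoplasmic protein, was at 8.17 CPM uncultured, 31.9 on the cultured E12.5 plate and 64.8 on the cultured E11.5 plate. Its ratio on the cultured E11.5 plate, 7.93 (5.50 to 11.8), rests on 34 uncultured counts. Its relative Ndrg2 was 5.45-fold higher (4.09 to 7.36), whereas Ndrg3 and Ndrg4 were 1.27-fold and 1.76-fold higher. Ankrd37, a small ankyrin repeat protein, was at 9.14, 33.2 and 44.5 CPM. Its level was 1.34-fold higher (1.01 to 1.79) on the cultured E11.5 than on the cultured E12.5 plate, so the cultured plates differed little beyond counting error.

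Egln3 encodes the prolyl hydroxylase PHD3, itself a HIF target that feeds back on HIF. It was at 21.4 CPM uncultured, 52.8 on the cultured E12.5 plate and 81.3 on the cultured E11.5 plate, ratios of 2.47 (1.86 to 3.28) and 3.80 (2.98 to 4.89). Egln1, the main oxygen sensor of the family and also a HIF target, was 2.05-fold (1.81 to 2.33) and 2.45-fold (2.18 to 2.75) higher. Egln2 was at 0.955-fold (0.78 to 1.17) and 0.91-fold (0.75 to 1.09).

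P4ha1 and Ero1l act in the endoplasmic reticulum, P4ha1 as the catalytic subunit of the enzyme that hydroxylates proline in collagen, Ero1l as the oxidase that drives disulfide bonding. P4ha1 was at 46.9 CPM uncultured, 261.9 on the cultured E12.5 plate and 371.0 on the cultured E11.5 plate, ratios of 5.59 (4.75 to 6.60) and 7.91 (6.80 to 9.25). Ero1l had the largest ratio of the 10 on both cultured plates, from 10.3 CPM to 58.7 and 134.0, or 5.68 (4.01 to 8.20) and 12.96 (9.46 to 18.2). It also differed most between the cultured plates, 2.28-fold (1.88 to 2.78). Of the relatives, P4ha2, the second catalytic subunit, was 15.8-fold (12.49 to 20.4) higher on the cultured E11.5 plate and P4hb, the shared subunit, 2.39-fold (2.26 to 2.53). P4ha3 was at 0.99-fold (0.72 to 1.35), and Ero1lb, with 16 counts on either plate, at 1.30-fold (0.61 to 2.77). Collagen-making stroma was also more prominent on the cultured plates: the 15 stroma markers summed to 3504 CPM uncultured, 22827 on the cultured E12.5 plate and 29566 on the cultured E11.5 plate. Their part in the P4ha1 difference was not tested.

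Vegfa, the growth factor that endothelial cells follow, had the most counts of the 10. It was at 99.6 CPM uncultured, 287.3 on the cultured E12.5 plate and 463.4 on the cultured E11.5 plate, ratios of 2.89 (2.55 to 3.27) and 4.65 (4.17 to 5.20). A count of it was found in 49.3%, 79.5% and 81.7% of wells, or 24.7%, 52.9% and 56.9% at equal depth. Of the 7 uncultured control wells with at least 1000 counts, 2 also held a Vegfa count. Among its relatives Vegfd was 6.98-fold (5.44 to 9.05) and Pgf 2.28-fold (1.53 to 3.42) higher on the cultured E11.5 plate, Vegfb was at 1.28-fold and Vegfc at 0.46-fold (0.32 to 0.66). The receptors on endothelium had lower values. Flt1 was at 0.21-fold (0.14 to 0.32), Flt4 at 0.40-fold and Kdr at 0.60-fold on the cultured E11.5 plate, while the co-receptors Nrp1 and Nrp2, made also by other cells, were 1.80-fold and 1.86-fold higher. The cultured E12.5 plate differed: Flt1 was at 1.69-fold (1.37 to 2.10) and Kdr at 0.27-fold (0.19 to 0.37). The 10 endothelium markers, which include Kdr, summed to 522.2 CPM uncultured, 456.3 on the cultured E12.5 plate and 186.0 on the cultured E11.5 plate, and their part in the receptor values was not tested. These sums rest on few wells. In the clustering described below, the endothelium-like cluster held 17 uncultured wells, 1 of the cultured E12.5 plate and 2 of the cultured E11.5 plate.

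Car9, a carbonic anhydrase of the cell surface that controls pH, was near the limit of detection. It had 6 counts uncultured, 11 on the cultured E12.5 plate and 20 on the cultured E11.5 plate, or 1.44, 4.68 and 6.23 CPM. The ratios to the uncultured plate were 3.25 (1.10 to 10.7) and 4.32 (1.67 to 13.1), and between the cultured plates 1.33 (0.61 to 3.07), which includes no difference. Of its relatives, Car4 was at 0.07-fold and Car14 at 0.165-fold on the cultured E11.5 plate, and Car2, Car3 and Car12 were at 0.52, 0.99 and 1.48-fold. Of all 26 measured relatives of the 10 genes, 6 were at least 2-fold higher and 3 at least 2-fold lower on that plate. That is near the shares over all genes tested, 20.9% and 11.4%.

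The rest of the pathway was then counted in the same way. Of 29 measured HIF targets on a further list outside glycolysis, 20 were at least 2-fold higher on the cultured E11.5 plate and 17 on the cultured E12.5 plate, and none was 2-fold lower on either. Over all genes tested, 20.9% and 18.9% were at least 2-fold higher on these plates, and 11.4% and 13.1% at least 2-fold lower. The further list's median log2 ratio was 1.76 and 1.33, against 2.49 and 1.78 for the 10 genes and 0.07 and -0.01 for all genes tested. Lox, which cross-links collagen, led that list at 26.6-fold (20.2 to 35.7), and Ccng2, a cyclin-like gene, was lowest at 0.79-fold. Glycolytic enzymes were at least 2-fold higher in 12 of 17 cases on each cultured plate, and among those with at least 50 counts they ran from Pfkm at 1.497-fold to Aldoc at 4.89-fold on the cultured E11.5 plate. For the machinery of HIF itself the counts were near the shares over all genes: 2 of 13 genes were at least 2-fold higher and 1 lower on each plate. Egln1 was its highest gene, Hif1a was at 0.74-fold (0.64 to 0.85) on the cultured E11.5 plate and 0.74-fold (0.63 to 0.86) on the cultured E12.5 plate, and Arnt2 was lowest at 0.33-fold and 0.32-fold.

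Other programmes differed between the plates too. Over all genes tested, 20.9% were at least 2-fold higher on the cultured E11.5 plate and 18.9% on the cultured E12.5 plate. Immediate early and dissociation genes were at least 2-fold higher in 17 of 17 cases on the cultured E11.5 plate and 16 of 17 on the cultured E12.5 plate, their sum going from 1173 CPM to 8945 and 7698. Hspa1a, a heat-shock chaperone, led them at 24.0-fold and Jund was lowest at 2.03-fold. Stress and unfolded protein response genes were 2-fold higher in 9 of 20 and 8 of 20 cases, from Psat1 at 0.72-fold to Trib3, with 140 counts against 1, on the cultured E11.5 plate. Proliferation genes summed to 4788, 2507 and 2102 CPM, with Rrm2 at 0.20-fold and Pcna at 0.79-fold on the cultured E11.5 plate. The median mitochondrial share was 7.28%, 3.61% and 3.49%. The part of these differences in the levels of the 10 genes was not tested.

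The cultured plates differed from each other by less. The summed level was 1.57-fold (1.496 to 1.64) higher on the cultured E11.5 than on the cultured E12.5 plate, and 9 of 10 intervals lay above 1. Ero1l, Slc2a3 and Ndrg1 were at least 2-fold higher, 3 of 10, where 8.35% of all genes were; none was 2-fold lower, where 4.54% of all genes were. No single gene's interval lay wholly above 2-fold. The plates shared a sequencing run but differed in embryonic day and, by title, in days of culture. The level also differed by place on the plate. On the cultured E12.5 plate the summed level was 895.3 CPM in rows A to G and 1439 in rows H to P, on the cultured E11.5 plate 1581 and 1914, and uncultured 277.0 and 351.6. Kept wells of these rows numbered 98 and 102 on the cultured E12.5 plate, 113 and 187 on the cultured E11.5 plate, and 143 and 194 uncultured. Most wells lost on the cultured E12.5 plate thus lay in rows H to P, where its level was higher. The part of the lost wells in its levels was not tested. Within rows A to G the cultured plates differed 1.77-fold, and within rows H to P 1.33-fold. The correlation of the summed level between wells of the same name on both cultured plates was 0.06 over 190 wells.

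Wells that held more than 1 cell occupied columns 18 to 23 of rows A to G, 42 wells on each cultured plate. All 42 were summed, without the limits on counts and mitochondrial share set for single-cell wells. At least 1000 counts were reached by 38 on the cultured E12.5 and 36 on the cultured E11.5 plate. The median depth of the 42 wells was 10478 and 7535 counts, against 9212 and 8993 in single-cell wells. On the cultured E11.5 plate multi-cell wells had a higher summed level than single-cell wells, 2800.2 against 1797 CPM, or 1.56-fold (1.48 to 1.64). Slc2a1 was at 445.4 against 169.5 CPM, 2.63-fold (2.27 to 3.04), Ankrd37 2.27-fold (1.66 to 3.07) and Car9, from 14 counts, 3.55-fold (1.66 to 7.39). These were the 3 members at least 2-fold higher, where 6% of all genes were, and none was 2-fold lower, where 9.28% of all genes were. Vegfa was 1.71-fold (1.54 to 1.90) and Bnip3 1.54-fold (1.36 to 1.74) higher, P4ha1 and Egln3 had intervals that include no difference, and Slc2a3 was lower at 0.69-fold (0.50 to 0.94). Against single-cell wells of the same rows the summed ratio was 1.77 (1.66 to 1.89), with 8 of 10 intervals above 1 and none below. P4ha1 was among the 8, but 1 well held 37.3% of its counts in multi-cell wells of at least 1000 counts. As a mean over wells of all rows it was lower there, at 317.5 against 404.1 CPM. The top well held 22.3% for Bnip3 and 22.3% for Vegfa, whose means stayed higher, at 459.3 against 399.1 and 1022 against 513.4 CPM.

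On the cultured E12.5 plate the direction was the opposite, and no difference in the sum was detectable within the same rows. Multi-cell wells had 882.0 against 1147 CPM, 0.77-fold (0.70 to 0.84), led by P4ha1 at 0.49-fold (0.39 to 0.62), the 1 member at least 2-fold lower, where 11.1% of all genes were, and none was 2-fold higher, where 9.63% of all genes were. Slc2a3 and Egln3 were at 0.51 and 0.53-fold, while Ndrg1 was 1.95-fold (1.29 to 2.90) higher. Against single-cell wells of the same rows the summed ratio was 0.99 (0.89 to 1.09). There P4ha1 alone had an interval below 1, at 0.60-fold (0.46 to 0.77), and Ndrg1 alone one above 1, at 1.96-fold (1.23 to 3.12). On the cultured E11.5 plate Ndrg1 was 1.95-fold (1.49 to 2.54) higher in multi-cell wells, but 1 well held 23.8% of its counts there, and as a mean over wells it was at 85.4 against 75.4 CPM. Vegfa on the cultured E12.5 plate was lower in the sum of wells, at 0.83-fold, but not as a mean over wells, at 338.5 against 321.9 CPM.

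The multi-cell wells also differed in cell type markers, over all rows. Of all genes, 9.63% were at least 2-fold higher and 11.1% lower in multi-cell wells of the cultured E12.5 plate. On the cultured E11.5 plate the shares were 6% and 9.28%. Nephron progenitor markers were at least 2-fold higher in 8 of 10 cases on both cultured plates. On the cultured E12.5 plate stroma markers were at least 2-fold lower in 11 of 15 cases and smooth muscle and mural markers in 6 of 6. On the cultured E11.5 plate neural markers were at least 2-fold lower in 8 of 10 cases, and stroma markers were at least 2-fold higher in 2 of 15 and lower in none. The part of these markers in the multi-cell values was not tested.

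A high summed level, taken as at least 6 counts of the 10 genes per 3000 counts of a well, equal to 2000 CPM, was found almost only on the cultured plates. It held for 2 of 296 uncultured wells (0.676%, 0.0819% to 2.42%), 50 of 191 on the cultured E12.5 plate (26.2%, 20.1% to 33.0%) and 101 of 288 on the cultured E11.5 plate (35.1%, 29.6% to 40.9%). At 5 and 6 counts, on either side of the limit, lay 15 and 11 wells of the cultured E12.5 plate and 17 and 14 of the cultured E11.5 plate. Counting error at so few counts moves wells across the limit, so these numbers cannot show whether the class is a range or a type. The highest well reached 7 counts uncultured, 18 on the cultured E12.5 plate and 45 on the cultured E11.5 plate. At the other end, 39.9%, 11% and 12.2% of wells had no count of the 10 genes at this depth. Multi-cell wells were high in 5 of 38 cases on the cultured E12.5 plate, against 17 of 94 single-cell wells of the same rows, and in 15 of 31 on the cultured E11.5 plate, against 32 of 105.

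**Figure D2:**
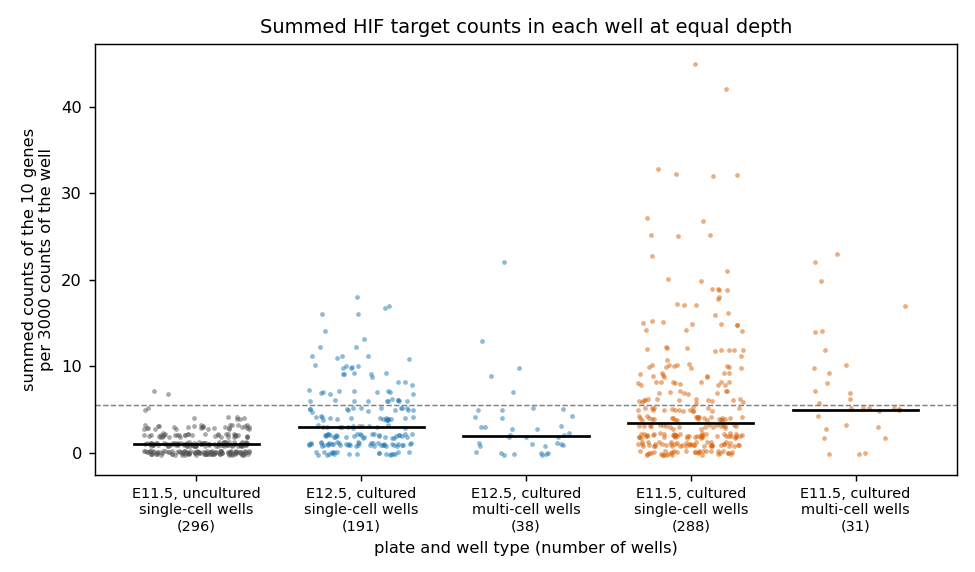
Summed counts of the 10 genes in each well after thinning to 3000 counts, by plate and well type; points are wells, spread slightly in both directions so that equal values can be seen, black lines are medians and the dashed line marks the limit of 6 counts. Uncultured wells end at 7 counts, whereas cultured E11.5 wells reach 45.

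Cultured wells also differed in how many of the genes they held. At least 5 of the 10 were found in none of the 296 uncultured wells, in 31 wells (16.2%) of the cultured E12.5 plate and in 70 (24.3%) of the cultured E11.5 plate. None or 1 was found in 77.7%, 40.8% and 35.4%. Taking 3 wells as the most that a count of 0 allows, the share of uncultured wells could be up to 1.01%.

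Over single wells the genes varied together on the cultured plates and not on the uncultured plate. The median Pearson r of log2(CPM + 100) over the 45 pairs was 0.01 over 337 uncultured wells, 0.26 over 200 wells of the cultured E12.5 plate and 0.38 over 300 of the cultured E11.5 plate. Pairs above 0.3 numbered 0, 19 and 32. After thinning to 3000 counts the medians were 0.00, 0.14 and 0.29, and the pairs above 0.3 numbered 0, 4 and 21. In sparse counts a low level lowers r, and the genes were lowest on the uncultured plate. The closest pair was Slc2a1 with Ero1l at 0.63 on the cultured E11.5 plate and Bnip3 with Vegfa at 0.44 on the cultured E12.5 plate. Bnip3 followed the sum of the other 9 genes best on both cultured plates, at 0.58 and 0.74, and Car9 least, at 0.16 and 0.11. Slc2a1 stood at 0.36 on the cultured E12.5 plate but 0.66 on the cultured E11.5 plate. These are correlations over wells that share a plate and its depth.

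**Figure D3:**
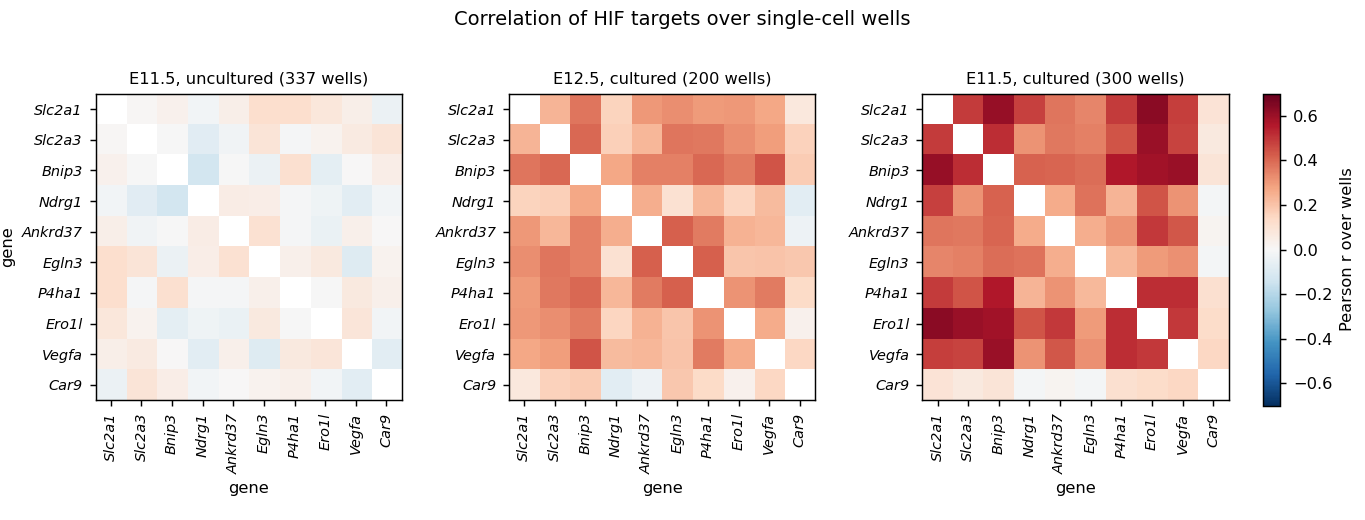
Pearson r of log2(CPM + 100) for each pair of the 10 genes over single-cell wells, 1 panel per plate, on a colour scale from blue (negative) to red (positive). The uncultured panel is pale throughout, from -0.13 to 0.12, and the cultured E11.5 panel is reddest, up to 0.63, except along the row of Car9.

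The non-member genes most like the set by mean r with its summed level over both cultured plates were Pgk1 at 0.71, the lactate exporter Slc16a3 at 0.67, Gpi1 at 0.65, P4ha2 at 0.65, Aldoa at 0.64, Pkm at 0.64, Ldha at 0.63, Gapdh at 0.63, Fam162a at 0.61 and Tpi1 at 0.61. Of these 10, from 6973 genes ranked, 7 were glycolytic enzymes and 3 were on the further list of HIF targets. Over all genes found in at least 20% of a plate's own wells, 7555 and 7348 on the cultured E12.5 and E11.5 plates, the 95th percentile of r was 0.15 on each. Uncultured, the same genes had r from -0.06 for Gapdh to 0.27 for Ldha, with P4ha2 found in too few wells. Lowest were Gm29216 at -0.39 and Gm10925 at -0.38. The summed level correlated with the sum of the glycolytic enzymes at r 0.72 and 0.78 on the cultured plates and 0.15 uncultured. Its r with the added tdTom sequence was 0.05 on both cultured plates, and wells with a tdTom count had 0.95-fold (0.88 to 1.03) and 1.04-fold (0.98 to 1.09) the summed level of wells without.

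The mitochondrial share of a well's counts was lower where the summed level was higher. Spearman's rho was -0.05 uncultured, -0.59 over 200 wells of the cultured E12.5 plate and -0.50 over 300 of the cultured E11.5 plate. High wells had a median mitochondrial share of 2.05% against 3.91% in other wells on the cultured E12.5 plate, and 2.48% against 3.86% on the cultured E11.5 plate. Their median depth was 8039 against 10472 counts and 8976 against 9458. The part of the mitochondrial share in the result was not tested.

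**Figure D4:**
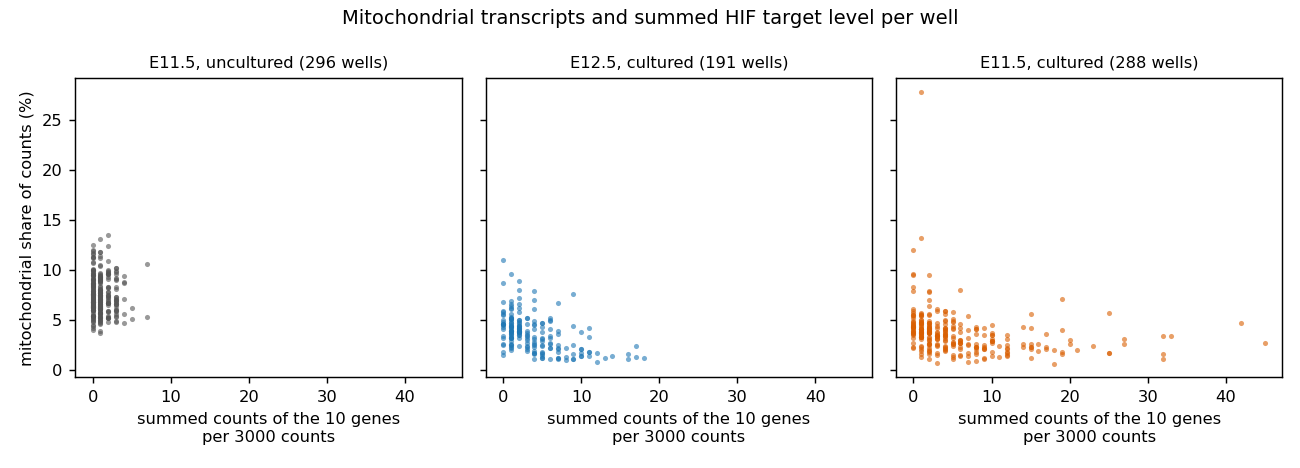
Mitochondrial share of counts in percent against summed counts of the 10 genes per 3000 counts, each point a single-cell well, 1 panel per plate. Cultured wells with many counts of the 10 genes lie mostly low on the axis, with medians of 2.05% and 2.48% in the high wells, and the uncultured wells form a narrow column at the left.

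High wells were compared with the other wells of their plate on lists that the limit did not use. Glycolytic enzymes were 2.24-fold higher on the cultured E12.5 plate and 2.57-fold on the cultured E11.5 plate, and the further HIF targets 2.04-fold and 2.48-fold. The HIF machinery was 1.21-fold and 1.39-fold higher. That list includes Egln1, itself a HIF target, whose r with the summed level was 0.52 and 0.63, and its part in these values was not tested. Markers of endothelium were lower on both plates, at 0.19-fold and 0.21-fold. Smooth muscle and mural markers, summed as 1 list, were at 0.34-fold and 0.57-fold, but the median wells were close, at 305.2 against 371.7 CPM and 416.4 against 422.3 CPM. Mural markers were not summed apart. The median well held no endothelium count in either class, so that ratio rests on few wells. Macrophage markers differed in direction, 2.11-fold on the cultured E12.5 plate, where 1 high well reached 31265 CPM, and 0.21-fold on the cultured E11.5 plate, where the median wells ran the other way, at 87.9 against 75.7 CPM. The part of these markers in the result was not tested.

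To see in which wells the genes were high, 837 wells were clustered without the 10 genes, the HIF machinery, the further HIF targets and glycolysis. Cluster 1, with 54 wells of the cultured E12.5 and 81 of the cultured E11.5 plate, had the highest summed level, 1978 CPM (1846 to 2116) and 3155 CPM (3027 to 3286). It was led by Ndufa4l2, Kcnj8, Abcc9 and Cox4i2 and was left unnamed. Of the listed markers, 4 of stroma were at least 2-fold higher there than in other wells, Pdgfrb, Penk, Postn and Tcf21. In a finer clustering, at resolution 2, a cluster of 68 wells led by Kcnj8, Ndufa4l2 and Abcc9 also had Cspg4, a smooth muscle and mural marker, among its leading genes. The part of cell type in the level of cluster 1 was not tested. Ndufa4l2 is itself known to respond to hypoxia and was not among the genes left out, so the cluster is not independent of the set. All 10 genes were found there, with Bnip3 at 467.8 and 672.5 CPM, Vegfa at 425.3 and 775.0, and Ero1l at 92.2 and 282.1. Cluster 13, led by Actg2, Ctgf, Tagln and Acta2, was the lowest on both plates at 538.1 and 676.0 CPM, with 10 wells on each. From highest to lowest the clusters differed 3.68-fold on the cultured E12.5 plate and 4.67-fold on the cultured E11.5 plate, but 1.82-fold uncultured, where they ran from 263.8 to 481.0 CPM.

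**Figure D5:**
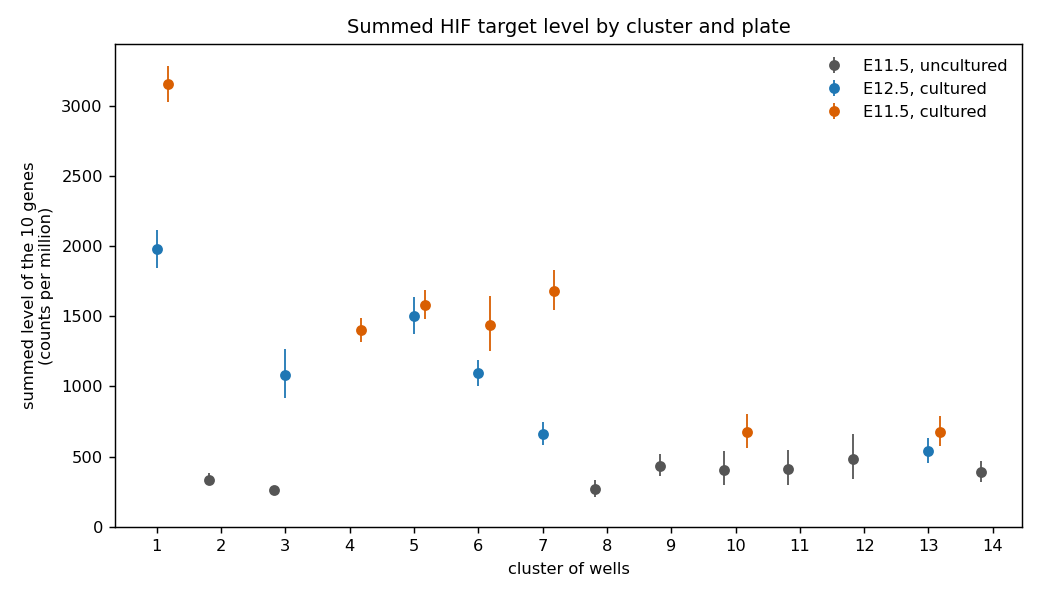
Summed level of the 10 genes in CPM for each cluster and plate with at least 10 wells, with exact 95% Poisson intervals as bars. Cluster 1 is highest on both cultured plates, and no uncultured point lies above 481.0 CPM.

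Few clusters held enough wells of a cultured and the uncultured plate. In cluster 3, led by Hbb-y, Hba-a1, Pax8 and Lhx1, the summed level was 4.10-fold (3.40 to 4.91) higher in 11 wells of the cultured E12.5 plate than in 85 uncultured wells. Bnip3 was at 7.11-fold (4.77 to 10.4) and Slc2a1 at 1.47-fold (0.62 to 3.03). The wells of the 2 plates were not shown to be alike. In a finer clustering, at resolution 2, the cluster led by Hbb-y, Hba-a1 and Six2 held 56 uncultured and 0 cultured E12.5 wells, that led by Lhx1 and Pax8 held 29 and 2, and that led by Klhdc8a and Trib3 held 1 and 9. No cluster then had 10 wells of both the cultured E12.5 and the uncultured plate. In the macrophage and other leukocyte-like cluster 10 the ratio was smaller, 1.66 (1.19 to 2.36) for 15 wells of the cultured E11.5 plate against 17 uncultured wells. Vegfa was higher there, at 199.4 against 33.2 CPM from 37 and 4 counts, whereas Bnip3 was at 0.83-fold (0.43 to 1.63). Of the 6 members with at least 10 counts in that cluster, 3 were above 1; Slc2a3 at 0.83-fold and Egln3 at 0.97-fold were also below. The ratio of the cultured plates was 1.59 in cluster 1, 1.05 (0.94 to 1.17) in cluster 5, which was led by cycling genes such as Foxm1 and Tk1, and 2.54 (2.18 to 2.96) in the stroma-like cluster 7. At resolution 2 it was 0.895 (0.745 to 1.08) in cluster 12, which was led by cycling genes too.

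Uncultured, single genes stood out in single clusters. Egln3 was at 144.0 CPM in the 17 endothelium-like wells and at 3.7 to 33.2 CPM in the other clusters. In the same wells Bnip3 was at 3.6 CPM and Vegfa at 14.4 CPM, the lowest of all clusters for both. Slc2a1 was highest in the 10 ureteric epithelium-like wells at 172.7 CPM, and Slc2a3 in the 19 neural and neural crest-like wells at 109.5 CPM. The neural and neural crest-like wells had a median of 1792.5 counts, against 12048 in the endothelium-like wells. Vegfa was highest in cluster 9, led by Plcxd3 and Sfrp2, at 156.4 CPM. The levels describe clusters of 1 plate and carry no test.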

How the data were processed

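Each plate's deposited table holds expected counts, with genes in rows and wells in columns: numbers of molecular identifiers per the labels' protocols. Of values above 0, 1.18% to 1.65% are not whole, the smallest being 21.1, as a correction for identifiers drawn repeatedly would give; no such step is recorded in the sources used here. Per the submitters' processing notes, STAR 2.6.1a, featureCounts 1.5.2 and build GRCm38.p5 were used; their roles are not given in the sources used here. Mitochondrial genes, spike-ins, added sequences and the column of unassigned barcodes (4.21% to 4.27% of counts) were left out of the totals. No column of other samples was found (0). Counts were not rounded for CPM, since no count model was fitted. Wells were thinned to 3000 counts where shares of wells are compared. Log values used a pseudocount of 100 CPM. Well P24 is not a control by its label and was treated as a sample well. Doublets were not called. The 10 members and all lists were chosen with earlier results of these data known. The genes named were the 10 members, their family relatives, the highest and lowest gene of each programme list by the cultured E11.5 to uncultured ratio with at least 50 counts, and the 10 genes most correlated with the summed level in at least 20% of wells. Some family relatives and receptors beyond that were named after their values were seen. Wells were clustered with scanpy 1.11.5 and leidenalg 0.10.2. Scripts ran in Python 3.11.15 with numpy 2.4.6, scipy 1.17.1 and pandas 2.3.3, and were tested on simulated data. Alternatives tried were well limits, denominators, deep wells, rows, thinning depth, the limit for a high level, and leaving out each member.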

Additional observations from a re-analysis of the deposited data

Results flagged for a closer look

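In multi-cell wells the summed level of the 10 genes, Bnip3 and Vegfa went opposite ways on the cultured plates. Against single-cell wells the sum was 1.56-fold on the cultured E11.5 plate and 0.769-fold on the cultured E12.5 plate, Bnip3 1.54-fold and 0.739-fold, and Vegfa 1.71-fold and 0.828-fold. Each group was 1 plate, and the difference was not tested. Against single-cell wells of rows A to G, where the multi-cell wells lie, the sum was 1.77-fold and 0.985-fold, Bnip3 1.84-fold and 1.19-fold, and Vegfa 1.92-fold and 0.958-fold. There the intervals of all 3 on the cultured E12.5 plate include no difference, so opposite directions are not shown within the same rows. As a mean over wells, Vegfa on the cultured E12.5 plate was at 338.5 CPM in multi-cell and 321.9 CPM in single-cell wells.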

How the results depend on the processing

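The ratio of the cultured plates reversed within 1 cluster at Leiden resolution 2, cluster 12, at 0.895; no other summed ratio changed direction under the alternatives run. No paired analysis was possible because each group was 1 plate. The cultured E11.5 to uncultured ratio was 5.42 without P4ha1, 6.34 without Vegfa, 5.44 in rows H to P and 1.66 within cluster 10, with the same value at both other resolutions. The cultured E12.5 to uncultured ratio was 3.37 without P4ha1, 4.09 without Vegfa, 3.23 in rows A to G but 4.09 in H to P, 4.10 within cluster 3 and 4.29 within cluster 1 at resolution 0.5; at resolution 2 no cluster held 10 wells of both plates. The ratio of the cultured plates was 1.77 in rows A to G against 1.33 in H to P, and 1.05, 1.32, 2.54 and 1.26 within clusters 5, 6, 7 and 13. Within clusters that moved it was 1.68, 1.05 and 1.26 at resolution 0.5, and 1.84, 1.27, 2.28, 1.20 and 1.45 at resolution 2. The rows H to P and cluster alternatives were chosen after seeing the data. The multi-cell ratio of the cultured E11.5 plate was 1.45 as a mean over wells, 1.45 without Slc2a1, 1.67 without P4ha1 and 1.77 in rows A to G; that of the cultured E12.5 plate was 0.850 without P4ha1 and 0.985 in rows A to G. The share of high wells at limits of 1000 and 4000 CPM was 13.5% and 0% uncultured, 50.8% and 4.71% on the cultured E12.5 plate, and 57.3% and 15.6% on the cultured E11.5 plate. Thinned to 1000 counts it was 4.45%, 34% and 41.7%; uncultured it was 0% thinned to 5000 counts and 0% with no thinning. It was 16.8% without Bnip3 and 18.1% in rows A to G on the cultured E12.5 plate, and 26.7% without P4ha1 on the cultured E11.5 plate. The causes of these shifts were not tested. Without the top well of each plate, 30 of 30 ratios of single members between plates moved by less than their counting error; as a mean over wells 23 did and 7 moved further. Depth limits Car9 most, with 6 uncultured counts.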
